A study of Homo sapiens with 9 samples.

Results

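The genes described here are 8 transcripts of the bone morphogenetic protein (BMP) and SMAD feedback circuit: *ID1*, *ID2*, *ID3* and *ID4*, the inhibitory SMADs *SMAD6* and *SMAD7*, the pseudoreceptor *BAMBI*, and the transcription factor *ATOH8*. They were chosen by name, as direct BMP-SMAD response genes joined with *ATOH8*, out of 20463 annotated genes in the count table. The choice was made with results of the same libraries already known, among them the response of *ATOH8* to 100 µM. The values of the 8 genes are therefore given as a description, without p-values. All 8 passed the filter on low counts.

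The RNA came from A375, an established human melanoma cell line, grown in DMEM with fetal bovine serum. Salvianolic acid B, a water-soluble polyphenol of *Salvia miltiorrhiza* root, was added to 100 µM or to 200 µM for 48 h, and the control cells were grown alike without it. No vehicle is named for the controls, and the material is 1 cell line at 1 time point. Each of the 3 groups had 3 libraries, which the study's design text calls biological replicates, and all 9 share 1 batch value in the labels. In a bulk library, fewer cells of a type and less RNA per cell cannot be told apart.

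The libraries held 29658753 to 30063195 counts in the control group, 29996059 to 30629685 at 100 µM and 27348621 to 28468350 at 200 µM. Replicate 3 at 200 µM stood apart, with 4.75% of its counts from mitochondrial messenger RNAs against 1.83% and 1.87% in the other replicates of that dose. That share was 2.11% to 2.32% in the control group and 2.86% to 3.15% at 100 µM. The gap in log2 expression between GC-rich and GC-poor genes was −0.16 to 0.17 in the control group, 0.70 to 0.95 at 100 µM, and 0.47, 0.97 and −0.33 in replicates 1 to 3 at 200 µM. Of the melanocyte lineage factors, *SOX10* averaged 341, 529 and 472 CPM (counts scaled by library size) in control, 100 µM and 200 µM. The pigment gene *TYR* was at or near 0. The 10 melanocyte and melanoma markers summed to 415 to 451, 620 to 632 and 476 to 630 CPM in the 3 groups. Of the 9 tested, 2 rose and 2 fell at 100 µM by edgeR's test at an adjusted p under 0.05 (median log2 −0.18). At 200 µM 3 rose and 2 fell (median log2 0.40). Of all genes tested, 18.9% rose and 18.2% fell at 100 µM, and 19.8% and 17.5% at 200 µM. The summed markers of other cell types also differed: the 8 leukocyte markers ranged from 18.1 to 21.7 CPM in control, 14.1 to 18.0 at 100 µM and 57.2 to 84.0 at 200 µM, with *CD3E* at 0 in all 9 libraries. The corresponding ranges were 29.7 to 32.1, 31.0 to 32.8 and 42.6 to 53.3 CPM for the 10 endothelial markers, with *CDH5* at or near 0. The 8 fibroblast markers summed to 50.7 to 54.3, 77.1 to 80.6 and 48.9 to 52.5 CPM, with *PDPN* at 0, and the 8 epithelial markers to 250 to 258, 316 to 349 and 315 to 437 CPM, with *KRT5* at 0. Of the 6 fibroblast markers tested, 5 rose and 1 fell at 100 µM (median log2 0.93), and 3 rose and 2 fell at 200 µM (0.22). Of 3 leukocyte markers tested, 0 changed at 100 µM and 2 rose at 200 µM (median log2 1.77). Of 6 endothelial markers tested, 1 rose and 1 fell at 100 µM, and 2 rose and 1 fell at 200 µM. Of 4 epithelial markers tested, 1 rose and 1 fell at 100 µM, and 2 rose and 0 fell at 200 µM. The part of these differences in the results that follow was not tested.

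BMP ligands bind pairs of serine/threonine kinase receptors, which phosphorylate SMAD1, SMAD5 and SMAD9. These enter the nucleus with SMAD4 and activate a small set of immediate target genes, of which the *ID* genes are the best known. ID proteins are helix-loop-helix proteins without a DNA-binding region: they pair with E proteins such as TCF3, TCF4 and TCF12 and keep these from binding DNA. SMAD6, SMAD7 and BAMBI are themselves induced by the pathway and dampen it, SMAD6 mainly on the BMP branch, SMAD7 on both the BMP and the TGF-β branch, and BAMBI as a truncated receptor that lacks the kinase. ATOH8 is an atonal-related basic helix-loop-helix factor that responds to BMP signalling in endothelial and liver cells. In melanoma, ID proteins are studied for their part in proliferation and cell state.

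The promoters of 4 of the genes are shown because the pathway's SMAD-binding motifs are read from such sequences, and because most of each of these 4 windows lies outside annotated exons. The *SMAD7* windows at chr18:48949334-48949583 and chr18:48942808-48943057 also lie outside annotated exons but are not shown. All are from RefSeq's GRCh38.p14 annotation, read 5′ to 3′ up to the base before the transcription start. The *ATOH8* stretch ends earlier, where another annotated transcript of the gene begins. It lies inside the gene, whose annotated span starts at 85751344. The *SMAD6* and *ID1* windows end with 8 and 6 bases that GENCODE annotates as exon. Capitals mark GGAGCC, a variant of the GC-rich BMP-SMAD motif (GGCTCC when read on the other strand), and in *SMAD6* also GTCTAGAC, the palindrome bound by SMAD3 and SMAD4. That palindrome reaches into the exonic bases at the end of the *SMAD6* window.
ID1 promoter, chr20:31605039-31605288, plus strand: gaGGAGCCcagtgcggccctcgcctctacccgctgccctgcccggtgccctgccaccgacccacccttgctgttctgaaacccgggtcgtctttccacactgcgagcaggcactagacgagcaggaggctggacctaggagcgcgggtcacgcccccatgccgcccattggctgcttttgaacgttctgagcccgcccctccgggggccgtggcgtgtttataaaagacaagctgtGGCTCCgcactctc
ID4 promoter, chr6:19837120-19837369, plus strand: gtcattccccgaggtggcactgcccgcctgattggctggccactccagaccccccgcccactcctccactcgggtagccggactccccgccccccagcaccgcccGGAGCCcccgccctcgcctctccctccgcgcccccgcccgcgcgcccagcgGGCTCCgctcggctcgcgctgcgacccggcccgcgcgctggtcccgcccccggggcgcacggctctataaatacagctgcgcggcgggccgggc
SMAD6 promoter, chr15:66701986-66702235, plus strand: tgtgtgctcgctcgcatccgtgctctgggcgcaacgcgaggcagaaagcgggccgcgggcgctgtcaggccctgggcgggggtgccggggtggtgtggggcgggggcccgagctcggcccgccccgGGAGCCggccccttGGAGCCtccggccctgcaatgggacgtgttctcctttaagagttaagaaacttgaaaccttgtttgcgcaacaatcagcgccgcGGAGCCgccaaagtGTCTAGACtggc
ATOH8 promoter, chr2:85753741-85753893, plus strand: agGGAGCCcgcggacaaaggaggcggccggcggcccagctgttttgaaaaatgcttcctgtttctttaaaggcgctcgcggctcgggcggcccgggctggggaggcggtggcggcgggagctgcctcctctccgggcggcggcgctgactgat

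All 8 genes matched RefSeq's promoter table, with 10 windows of 250 bases since *SMAD7* has 3 starts. GGAGCC, searched on both strands, was present in 7 of the 10 windows, in every gene but *ID2*, against 30.6% of the 35116 windows in the table. It occurred 4 times in *BAMBI*, 3 times in *SMAD6* and 2 times each in *ID1* and *ID4*. The *SMAD7* window at chr18:48949334-48949583 held no GGAGCC. GTCTAGAC was present in *SMAD6* and in 0.182% of all windows. GGCGCC, the canonical GC-rich motif, was present in *BAMBI* alone of the 8 genes and in 16.4% of all windows. The short SMAD-binding element CAGAC was present in 5 of the 10 windows, in *BAMBI*, *ID3*, *ID4* and *SMAD7*, against 38.0% of all. The composite BMP response element, which joins a GC-rich site to GTCT and can contain GGCGCC, and the E-box CACGTG were in none of the 10 windows, against 0.256% and 6.34% of all. The GC-rich motifs depend on base composition: the windows of the 8 genes had a GC content of 48.0% to 81.2%, and the median over all windows was 58.0%. A match in these letters is a description of the sequence, and no binding was measured.

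Across the 8 genes the 2 doses of salvianolic acid B gave different patterns. At 100 µM, *ATOH8*, *SMAD6*, *SMAD7*, *ID3* and *BAMBI* were higher than in control, and *ID2* and *ID4* were lower. *ID1* was level there, but at log2 −0.30 after a GC correction. At 200 µM, *ID2* was several-fold higher than in control, while *ATOH8*, *ID3*, *ID1* and *BAMBI* were lower. *ATOH8* had the widest range of the 8, at 39.6 CPM with 100 µM and 1.02 CPM with 200 µM. The values below are library-size-scaled CPM, with the SD over 3 libraries, and log2 fold changes with the standard error (SE) of the model.

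**Figure D1:**
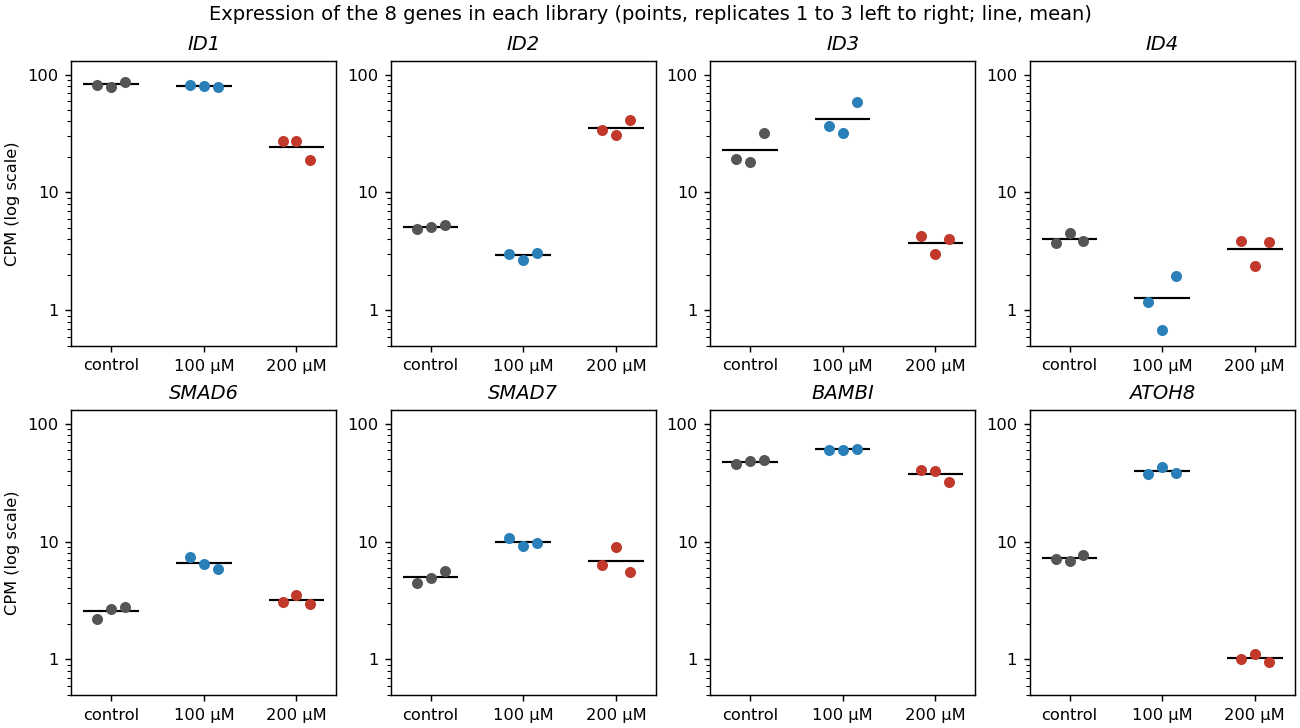
Expression of each of the 8 genes in CPM (log axis) in the control, 100 µM and 200 µM libraries; points are the replicates 1 to 3 from left to right and lines are group means. *ATOH8* lies at 6.85 to 7.70 in control, 37.7 to 42.8 at 100 µM and 0.953 to 1.10 at 200 µM, whereas *ID2* is lowest at 100 µM and highest at 200 µM.

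*ID1* (ENSG00000125968, chromosome 20, 31605283 to 31606515, plus strand, GRCh38) is the classic BMP-induced ID gene. Its control libraries were at 81.9, 78.8 and 86.7 CPM, those at 100 µM at 82.2, 79.2 and 79.0, and those at 200 µM at 27.1, 27.1 and 18.7. The control and 100 µM libraries overlapped, and all 3 libraries at 200 µM lay below them, with replicate 3 the lowest. The log2 fold change was −0.04 ± 0.13 at 100 µM and −1.76 ± 0.14 at 200 µM against control, the latter 3.39-fold lower. After a GC correction the 100 µM value was −0.30 and the 200 µM value −1.86.

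*ID2* (ENSG00000115738, chromosome 2, 8678845 to 8684453, plus strand), an ID gene also driven by other pathways, differed from *ID1* at both doses. It was at 4.89, 5.13 and 5.27 CPM in control, 3.02, 2.66 and 3.08 at 100 µM, and 33.6, 30.9 and 41.0 at 200 µM. No 2 groups overlapped. Against control, *ID2* was 1.74-fold lower at 100 µM (log2 −0.80 ± 0.14) and 6.90-fold higher at 200 µM (log2 2.79 ± 0.13). It shares 1.72% of its exon bases with the antisense gene *ID2-AS1*, whose reads cannot be told apart from its own where counting ignores strand. *ID2* is the only one of the 8 genes in the authors' deposited table of normalized values, taken here to be FPKM, where it is at 3.45, 3.52 and 3.57 in control, 2.02, 1.89 and 2.08 at 100 µM and 24.7, 23.1 and 27.2 at 200 µM. Those values keep the same order of groups.

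*ID3* (ENSG00000117318, chromosome 1, 23557918 to 23559794, minus strand) varied more between replicates. Its libraries were at 19.4, 18.0 and 31.8 CPM in control, 36.3, 32.1 and 58.1 at 100 µM, and 4.24, 2.99 and 4.05 at 200 µM. Replicate 3 was the highest of its group in control and at 100 µM, and the highest control library was just under the lowest one at 100 µM. The log2 fold change against control was 0.87 ± 0.28 at 100 µM, and 1.17 without control replicate 3 or 0.58 without 100 µM replicate 3. With a GC correction the 100 µM value was 0.64. At 200 µM it was −2.62 ± 0.31, which is 6.14-fold lower.

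*ID4* (ENSG00000172201, chromosome 6, 19837386 to 19840684, plus strand), an ID gene known from neural progenitors, was lowest at 100 µM, as *ID2* was. It was at 3.71, 4.55 and 3.85 CPM in control, 1.19, 0.681 and 1.94 at 100 µM and 3.88, 2.39 and 3.77 at 200 µM. The control and 200 µM libraries overlapped, and all 3 libraries at 100 µM were below both. These values rest on few reads, from 21 to 60 counts per library at 100 µM. The log2 fold change was −1.66 ± 0.35 at 100 µM, 3.17-fold lower, and −0.27 ± 0.33 at 200 µM.

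Divided by transcript length, the ID family was about level at 100 µM and lower at 200 µM, with another composition. The sum of the 4 genes was 107 ± 9.94 CPM per kilobase in control (99.4 to 118), 117 ± 10.9 at 100 µM (108 to 129) and 54.7 ± 1.97 at 200 µM (53.4 to 57.0), so that the first 2 groups overlapped and the third lay below both. *ID1* made up 77.8% ± 3.50 of that sum in control, 69.3% ± 6.74 at 100 µM and 44.6% ± 8.54 at 200 µM. The share of *ID2* was 3.51% ± 0.261, 1.84% ± 0.0927 and 47.3% ± 7.58, that of *ID3* 17.0% ± 3.93, 28.4% ± 6.62 and 5.49% ± 0.873, and that of *ID4* 1.63% ± 0.292, 0.452% ± 0.187 and 2.60% ± 0.604. Within a library, the ratio of *ID2* to *ID1* per length averaged 0.0451 in control, 0.0266 at 100 µM and 1.11 at 200 µM, where it ran from 0.831 to 1.60. At 200 µM *ID1* and *ID2* therefore stood at levels per length that did not separate, whereas *ID1* was far above *ID2* in the other 6 libraries.

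**Figure D2:**
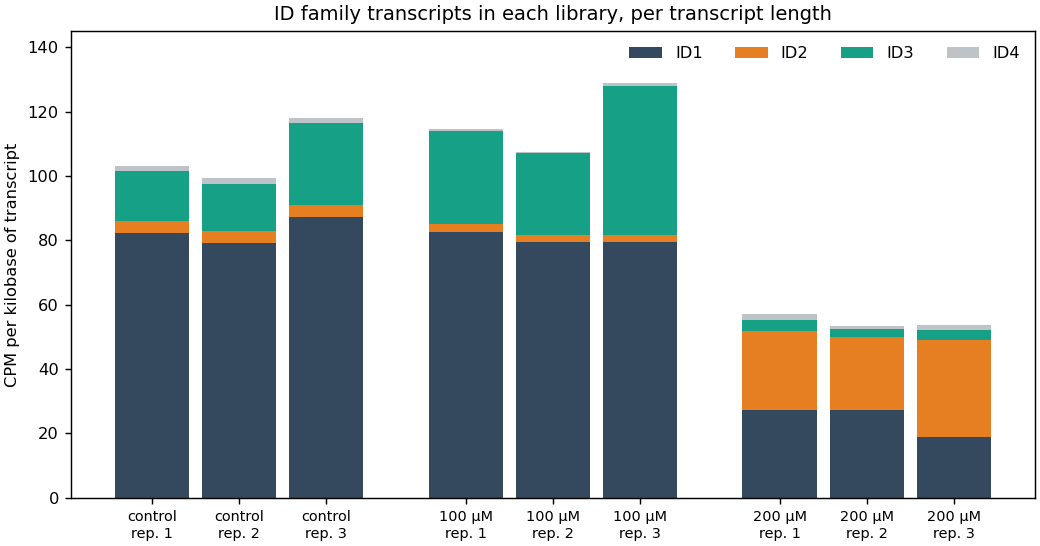
Stacked bars of *ID1*, *ID2*, *ID3* and *ID4* in CPM per kilobase of transcript in each of the 9 libraries, from control replicate 1 to 200 µM replicate 3. The stack falls from 99.4 to 118 in control to 53.4 to 57.0 at 200 µM, where *ID2* and *ID1* fill most of it.

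*SMAD6* (ENSG00000137834, chromosome 15, 66702228 to 66782848, plus strand), the inhibitory SMAD that blocks BMP receptors and SMAD1, was at 2.22, 2.69 and 2.80 CPM in control, 7.45, 6.49 and 5.80 at 100 µM and 3.05, 3.52 and 2.98 at 200 µM. All libraries at 100 µM were above all others, and those at 200 µM were narrowly above control. The log2 fold change was 1.36 ± 0.16 at 100 µM, 2.56-fold higher, and 0.31 ± 0.16 at 200 µM. With a GC correction the 100 µM value was 1.07.

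*SMAD7* (ENSG00000101665, chromosome 18, 48919853 to 48952052, minus strand), which targets the receptors of both branches for degradation, was at 4.44, 4.93 and 5.64 CPM in control. It was at 10.6, 9.21 and 9.76 CPM at 100 µM and at 6.27, 8.94 and 5.48 at 200 µM, where the lowest library fell inside the control range. The log2 fold change was 0.98 ± 0.19 at 100 µM, 1.97-fold higher, and 0.46 ± 0.19 at 200 µM. The 100 µM value was 0.70 with a GC correction, and the 200 µM value was 0.23 without 200 µM replicate 2. The ratio of *SMAD7* to *SMAD6* per length was 1.69 ± 0.0865 in control, 1.31 ± 0.129 at 100 µM and 1.86 ± 0.308 at 200 µM.

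*BAMBI* (ENSG00000095739, chromosome 10, 28677342 to 28682939, plus strand) shifted by little at either dose. It was at 45.2, 48.4 and 48.8 CPM in control, 60.2, 59.4 and 61.3 at 100 µM and 40.2, 39.8 and 31.8 at 200 µM. No groups overlapped, although the differences were 1.27-fold higher at 100 µM (log2 0.35 ± 0.10) and 1.27-fold lower at 200 µM (log2 −0.35 ± 0.10). After a GC correction the 100 µM value was 0.17, and without 200 µM replicate 3 the 200 µM value was −0.23.

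*ATOH8* (ENSG00000168874, chromosome 2, 85751344 to 85788066, plus strand) was counted 199 to 228 times per library in control, 1173 to 1320 times at 100 µM and 24 to 31 times at 200 µM. In CPM these were 7.10, 6.85 and 7.70, then 37.7, 42.8 and 38.2, then 1.02, 1.10 and 0.953. The groups were far apart and each was tight within itself. The log2 fold change was 2.45 ± 0.11 at 100 µM, 5.48-fold higher than control, and −2.81 ± 0.12 at 200 µM, 7.01-fold lower. Between the doses it was −5.26 ± 0.13, or 38.4-fold lower at 200 µM. With a GC correction the 100 µM value was 2.07, and without 200 µM replicate 3 the 200 µM value was −2.75.

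The direct comparison of the doses separated all 8 genes. *ID2* (log2 3.59 ± 0.14, 12.0-fold) and *ID4* (1.39 ± 0.35) were higher at 200 µM than at 100 µM. *ID3* (−3.49 ± 0.31), *ID1* (−1.72 ± 0.14), *SMAD6* (−1.05 ± 0.16), *BAMBI* (−0.69 ± 0.10), *SMAD7* (−0.52 ± 0.19) and *ATOH8* were lower.

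**Figure D3:**
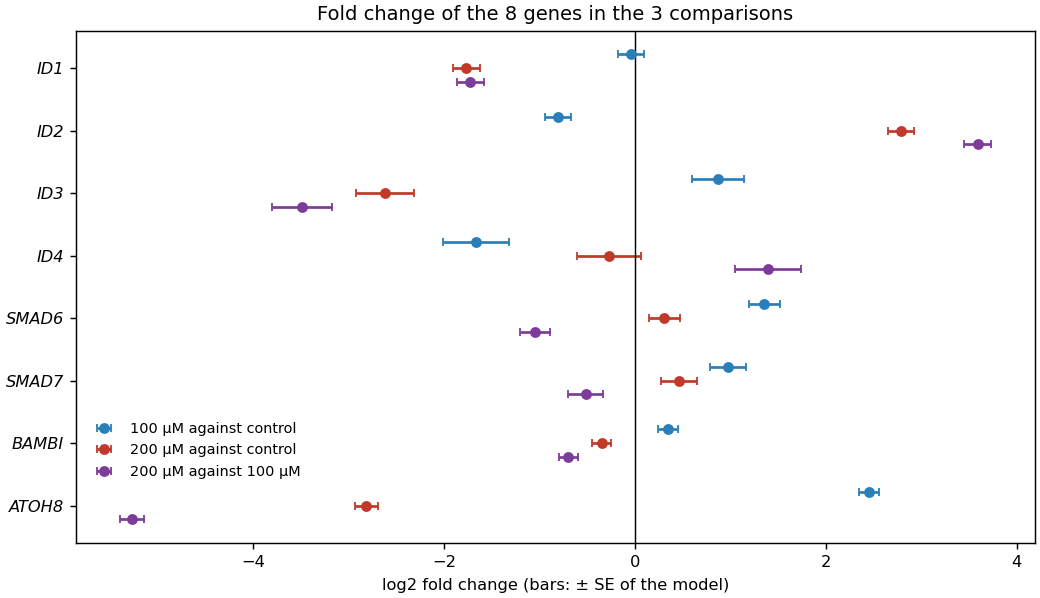
Log2 fold change of the 8 genes in the 3 comparisons, with bars for the SE of the model. *ATOH8* spans 2.45 at 100 µM to −2.81 at 200 µM against control, *ID2* lies at −0.80 and 2.79, and *ID1* is at −0.04 and −1.76.

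Counted by groups that did not overlap, 7 of the 8 genes separated from control at 100 µM (5 higher, 2 lower), when 67.0% of the 13968 genes tested did so, 32.3% higher and 34.7% lower. At 200 µM 6 of 8 separated from control (2 higher, 4 lower) against 48.8% of all genes tested, 24.4% higher and 24.5% lower. Between the doses all 8 separated (2 higher, 6 lower) against 53.3%, of which 25.4% were higher and 27.8% lower. Since the genes were chosen with these contrasts in view, nothing is read from these counts. The median log2 fold change of the 8 genes was 0.61, −0.31 and −0.87 in the 3 comparisons, and that of all genes tested was −0.01, 0.00 and −0.01. The comparisons share libraries, so their values are set side by side only.

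Per kilobase of transcript, the order of the 8 genes differed by dose. In control *ID1* was the highest at 83.0 CPM per kilobase, followed by *BAMBI* at 25.3, *ID3* at 18.4, *ID2* at 3.74, *ATOH8* at 2.96, *ID4* at 1.72, *SMAD7* at 1.13 and *SMAD6* at 0.670. At 100 µM *ID1* stood at 80.6, *ID3* at 33.7, *BAMBI* at 32.1 and *ATOH8* at 16.2, with *ID3* and *BAMBI* within each other's spread. At 200 µM *ID2* at 25.8 and *ID1* at 24.4 led, *BAMBI* was at 19.8, and *ATOH8* was the lowest of the 8 at 0.420. The ratio of *ATOH8* to *ID1* per length, a comparison within each library, was 0.0357 ± 0.000467 in control, 0.201 ± 0.0173 at 100 µM and 0.0176 ± 0.00289 at 200 µM.

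Likeness between profiles was measured as the root mean square difference of log2 CPM over the 9 libraries after each gene was centred on its own mean, so that a smaller value is a closer match. The median over all other genes tested lay between 0.68 (to *SMAD6*) and 2.16 (to *ATOH8*) for the 6 genes compared with them. To *SMAD7* and *BAMBI*, which varied less, the median was 0.56 and 0.43. Among the 8 genes, *SMAD6* and *SMAD7* were closest at 0.25, followed by *SMAD7* and *BAMBI* at 0.37, and *ID2* and *ATOH8* were farthest apart at 3.65. Neither close pair stood out from other genes. The nearest 1% of other genes lay within 0.23 of *SMAD6* and 0.18 of *SMAD7*, and 0.37 is near the median distance to *BAMBI*. *ID1* and *ID3* were 0.79 apart, and *ID3* and *ATOH8* 0.87. For these, the nearest 1% of other genes lay within 0.37 of *ID1*, 0.84 of *ID3* and 1.35 of *ATOH8*. *ID1* was thus inside this range of *ID3*, and *ID3* inside that of *ATOH8*, but not the reverse in either pair. Since the genes were chosen with results known, nothing is read from these distances. Of all other genes tested, *HMGN2*, a nucleosome-binding protein, was nearest to *ID1* at 0.10, followed by *LRATD2* at 0.11 and *B3GAT1* at 0.13. The nearest to *ID2* were *LYPD3* at 0.20, the viral RNA sensor *RIGI* at 0.22 and *OSBP2* at 0.26. *RIGI* averaged 18.4, 8.29 and 103 CPM in control, 100 µM and 200 µM.

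The nearest profiles to *ID3* were *NMU* at 0.35, the mechanosensitive channel *PIEZO2* at 0.37 and *CD200* at 0.39. *ID4* was nearest to *TICAM2* at 0.25, although *TICAM2* shares 93.4% of its exon bases with other genes, then *REM1* at 0.35 and *ELAVL2* at 0.36. *SMAD6* was nearest to *SYNPO* at 0.08, *RAVER1* at 0.10 and *PLXNB2* at 0.10. *ATOH8* was nearest to the potassium channel gene *KCNJ16* at 0.24, the gap junction gene *GJA5* at 0.35 and the fatty acid transporter *SLC27A6* at 0.61. Of these, *GJA5* was at 1.47, 5.22 and 0.187 CPM in the 3 groups, and *KCNJ16* and *SLC27A6* stayed under 1 CPM in each group and at 0 at 200 µM. *LRATD2*, *CD200*, *RAVER1* and *GJA5* share 21.5%, 11.9%, 38.1% and 20.3% of their exon bases with other genes. No near profiles are named for *SMAD7* and *BAMBI*, whose group means differed by less than 2-fold.

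Around these 8 genes, 147 other genes were followed in 10 lists, and 105 of the genes passed the filter. The lists hold genes of BMP and TGF-β signalling and their targets, and also E proteins and atonal-related factors. All are called pathway genes here. At an adjusted p under 0.05 (edgeR's quasi-likelihood test, Benjamini-Hochberg over all genes tested), 50 changed at 100 µM against control (32 higher, 18 lower) and 54 at 200 µM (35 higher, 19 lower). Between the doses 61 changed (32 higher, 29 lower). Over all genes tested, 37.1%, 37.3% and 44.4% changed in the same comparisons, against 47.6%, 51.4% and 58.1% of these pathway genes. By direction, the shares of all genes were 18.9% higher and 18.2% lower at 100 µM, 19.8% and 17.5% at 200 µM, and 22.4% and 21.9% between the doses. The number of all genes called at 100 µM, 5181, was 7943 without 200 µM replicate 3.

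**Figure D4:**
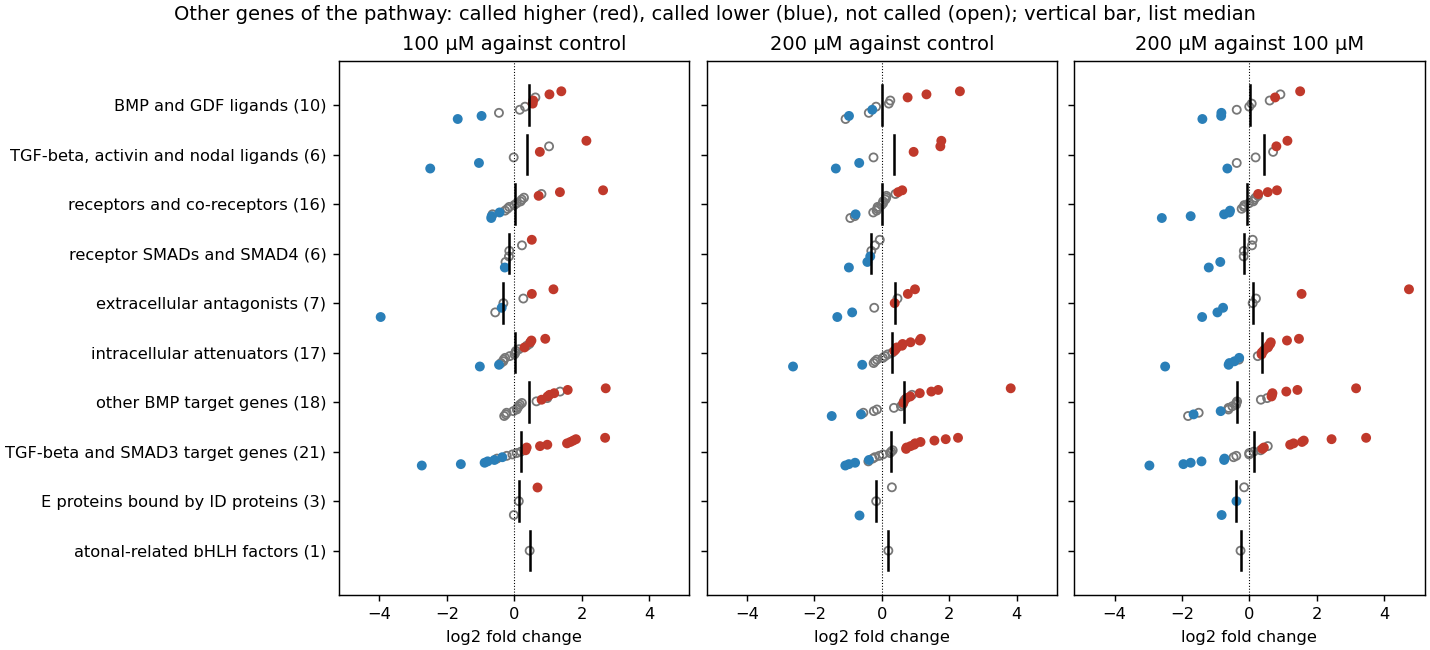
Log2 fold changes of the 105 other pathway genes tested, by list in the 3 comparisons; filled points changed at an adjusted p under 0.05 (red higher, blue lower), open points did not, the vertical bars are list medians, and points of a list are spread vertically by rank. The antagonist *FST* lies at −3.96 at 100 µM and 0.77 at 200 µM, and *INHBA* is lower at both doses.

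Among the BMP and GDF ligands, 10 of 19 were tested: 4 rose and 2 fell at 100 µM, and 3 rose and 2 fell at 200 µM. Their median log2 fold change was 0.43 and 0.02. *BMP4*, a main ligand of this branch, fell from 7.96 ± 0.223 CPM to 4.06 ± 0.473 at 100 µM and 4.05 ± 0.288 at 200 µM (log2 −0.97 ± 0.13 at both doses, adjusted p = 6.1e-04 and 5.2e-04). *BMP6* fell from 16.4 ± 0.458 CPM to 5.12 ± 0.562 at 100 µM (−1.68 ± 0.14, adjusted p = 4.7e-05) and was 2.84-fold higher at 200 µM than at 100 µM (1.51 ± 0.14, adjusted p = 4.1e-05). *BMP8B* rose from 12.9 CPM to 19.1 and 32.4 (0.56 ± 0.11 and 1.33 ± 0.11, adjusted p = 0.0037 and 3.4e-05). *BMP2* did not pass the test at either dose (−0.45 ± 0.23 and −0.39 ± 0.23). *GDF11* fell between the doses from 120 to 67.6 CPM (−0.83 ± 0.07, adjusted p = 2.5e-05), and its fall at 200 µM against control (−0.28 ± 0.07) was lost without control replicate 1 and with only the 2 groups fitted. *GDF1* rose at both doses, but all of its exon bases lie in *CERS1* exons, and the 100 µM call was lost without control replicates 1 or 3 or 100 µM replicate 2 and after a GC correction (log2 0.94). *BMP7*, at 0.525 CPM in control and 1.09 at 100 µM, lost its call there without control replicate 2 or any replicate of that dose, and after a GC correction with the replicate block. *BMP8A*, with 15.8% of its exon bases shared, rose at 200 µM (0.77 ± 0.23) and lost its call without any control replicate or 200 µM replicate 2, and with only the 2 groups fitted. *GDF7* and *BMP7* fell between the doses at under 1.1 CPM, calls that were lost under 8 and 12 of 18 alternative settings. *GDF6* was below the filter.

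Outside the BMP branch, the largest ligand change at 100 µM was in *INHBA*, which encodes the activin A subunit. Its libraries were at 578, 592 and 534 CPM in control, 88.7, 105 and 109 at 100 µM and 230, 166 and 266 at 200 µM. It fell 5.63-fold at 100 µM (log2 −2.49 ± 0.17, adjusted p = 1.4e-05) and 2.58-fold at 200 µM (−1.37 ± 0.16, adjusted p = 2.5e-04). Of the 12 genes in this list 6 were tested, with 2 higher and 2 lower at 100 µM and 3 higher and 2 lower at 200 µM. *TGFB1* rose from 31.6 CPM to 53.5 and 60.8 (0.76 ± 0.10 and 0.94 ± 0.10), and the first of these calls was lost after a GC correction. *TGFB2* rose from 0.493 CPM to 2.19 and 1.69, with 26.6% of its exon bases shared with another gene. *TGFB3* fell at 200 µM from 5.63 to 3.53 CPM and *INHBE* rose from 0.171 to 0.581. *INHA* fell at 100 µM (−1.05 ± 0.25) and rose between the doses; the first call was lost without 100 µM replicate 2 and the second without 100 µM replicates 2 or 3 or 200 µM replicates 1 or 2, with total-count scaling and with the replicate block.

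Of the BMP receptors, *BMPR1A* (86.2 ± 3.63 CPM in control, 71.3 ± 5.81 and 78.5 ± 10.8 with treatment) and *BMPR2* (34.7 ± 3.91, 42.3 ± 3.58 and 45.9 ± 13.5) did not pass the test in any of the 3 comparisons. Both passed it under some settings, *BMPR1A* at either dose without 200 µM replicate 3 and at 100 µM with only the 2 groups fitted. After a GC correction *BMPR2* was higher at both doses (log2 0.73 at 100 µM and 0.63 at 200 µM, adjusted p = 8.8e-05 and 1.4e-04). It also passed at 100 µM without 200 µM replicate 3 and with only the 2 groups fitted, and at 200 µM without 200 µM replicate 2. *ACVR1* rose at 200 µM from 18.9 to 26.5 CPM (0.48 ± 0.10, adjusted p = 0.0038). At 100 µM *ACVR1* was at 22.1 CPM and did not pass, but did without 200 µM replicate 3, with only the 2 groups fitted and after a GC correction. Its rise between the doses (0.26 ± 0.09) was lost under 15 of the 18 alternative settings. Of the 16 receptors and co-receptors tested of 18, 3 rose and 3 fell at 100 µM, and 2 rose and 1 fell at 200 µM.

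*ENG*, the TGF-β and BMP co-receptor endoglin, rose from 28.9 ± 1.57 CPM to 73.9 ± 6.35 at 100 µM (1.36 ± 0.09, adjusted p = 1.7e-05) and to 43.9 ± 2.22 at 200 µM (0.61 ± 0.09, adjusted p = 0.0010). *RGMA*, a BMP co-receptor, rose at 100 µM from 0.604 to 3.78 CPM (2.64 ± 0.40, adjusted p = 0.0012), and was 0.622 at 200 µM. Its receptor *NEO1* rose at 100 µM from 18.4 to 30.4 CPM. *RGMB* fell at 100 µM from 50.4 to 37.2 CPM, with 45.7% of its exon bases shared with other genes. *BMPR1B* and *TGFBR1* also fell at 100 µM (−0.68 ± 0.16 and −0.67 ± 0.11), calls that were lost after a GC correction. *TGFBR2*, the type II TGF-β receptor, fell at 200 µM from 124 to 72.1 CPM (−0.78 ± 0.11, adjusted p = 5.2e-04), and *ACVRL1* fell between the doses from 0.463 to 0.134 CPM (−1.74 ± 0.38).

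Of the receptor SMADs and SMAD4, the BMP effector *SMAD1* was at 15.8, 14.2 and 12.7 CPM and the shared partner *SMAD4* at 60.1, 53.8 and 57.6 CPM in the 3 groups, and neither passed the test in any comparison. *SMAD1* passed it at 200 µM without 200 µM replicate 3 and after a GC correction. *SMAD5* was at 127 CPM in control and 106 at 100 µM, where it did not pass except when the 2 groups were fitted by themselves, and fell at 200 µM to 94.5 (−0.43 ± 0.11, adjusted p = 0.013). This call did not hold with control replicate 2 left out or after a GC correction, under which *SMAD5* was instead called lower at 200 µM than at 100 µM. *SMAD3*, the effector of the TGF-β branch, rose at 100 µM from 83.0 to 119 CPM (0.52 ± 0.07, adjusted p = 4.6e-04) and fell at 200 µM to 65.4 (−0.34 ± 0.07, adjusted p = 0.0036). *SMAD2* fell at 100 µM (−0.28 ± 0.08), but a GC correction ended that call and turned its sign (log2 0.05). The call also did not hold with the replicate block, or with control replicates 1 or 2 or any replicate of that dose left out. *SMAD9*, at 1.51 CPM in control and 0.768 at 200 µM, passed at 200 µM by a small margin (adjusted p = 0.046) and lost the call under 13 of the 18 alternative settings, among them without any 1 of 8 libraries, all but 200 µM replicate 3. Its fall between the doses (−1.21 ± 0.33) was lost without 100 µM replicates 1 or 2 or 200 µM replicate 1.

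Among the secreted antagonists, of which 7 of 19 were tested, *FST* had the largest change at 100 µM. Follistatin binds activins and, less tightly, some BMPs. *FST* was at 1160, 1165 and 1104 CPM in control, 71.7, 74.3 and 73.6 at 100 µM, and 2158, 1896 and 1801 at 200 µM. It fell 15.6-fold at 100 µM (log2 −3.96 ± 0.09, adjusted p = 3.7e-08), rose 1.71-fold at 200 µM (0.77 ± 0.08, adjusted p = 1.0e-04) and was 26.7-fold higher at 200 µM than at 100 µM. *CRIM1*, a membrane protein that binds BMPs, rose at both doses (from 70.1 CPM to 157 and 91.3), while *CHRDL1*, a BMP-binding chordin relative, fell at both (from 113 CPM to 87.1 and 45.1). *FSTL1* rose at 100 µM (from 81.8 to 117 CPM) and fell at 200 µM (to 44.4). *FSTL3* rose at 200 µM from 30.7 ± 1.06 to 60.8 ± 23.4 CPM (0.98 ± 0.25, adjusted p = 0.013).

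All 17 intracellular attenuators were tested, and 4 rose and 2 fell at 100 µM, 8 rose and 2 fell at 200 µM, and 9 rose and 5 fell between the doses. Their median log2 fold change was 0.03, 0.31 and 0.36. *SMURF1*, the ubiquitin ligase that SMAD6 and SMAD7 recruit, rose from 36.9 ± 1.57 CPM to 66.6 ± 3.16 at 200 µM (0.85 ± 0.08, adjusted p = 8.1e-05), and its rise at 100 µM (0.30 ± 0.08) was lost without control replicates 1 or 2 or 100 µM replicates 1 or 2, and with the replicate block. It shares 11.7% of its exon bases with *TRRAP*. *NEDD4L*, another ligase of the pathway, rose from 59.6 CPM to 84.9 and 130 (0.51 ± 0.09 and 1.13 ± 0.09). *SKI*, a co-repressor of SMAD complexes, rose at 100 µM from 31.8 to 60.2 CPM (0.92 ± 0.09, adjusted p = 1.4e-04). *SKIL*, its relative, did not pass at 100 µM (−0.27 ± 0.19), but after a GC correction it passed there in the other direction (log2 0.31, adjusted p = 0.0046). It fell at 200 µM (−0.58 ± 0.20, adjusted p = 0.043). That call did not hold when leaving out any control replicate, 100 µM replicate 2 or 200 µM replicates 1 or 2, with only the 2 groups fitted, with the replicate block or with assembled transcripts kept. Between the doses *SKIL* passed without 200 µM replicate 3 and after a GC correction (log2 −0.55).

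*PMEPA1*, a TGF-β-induced inhibitor that sequesters receptor SMADs, was at 71.2, 68.1 and 71.4 CPM in control, 66.1, 63.7 and 62.0 at 100 µM and 11.3, 13.2 and 9.37 at 200 µM, where it fell 6.21-fold (−2.64 ± 0.12, adjusted p = 1.9e-06). *TGIF1*, a co-repressor, fell at 100 µM from 71.6 to 35.2 CPM (−1.02 ± 0.08, adjusted p = 2.6e-05) and was at 76.4 at 200 µM. *TOB1*, an antiproliferative protein, rose at 200 µM from 21.2 to 47.2 ± 12.6 CPM, with 11.2% of its exon bases shared. Between the doses *WWP1* rose (0.64 ± 0.14) and *CTDSP1* fell (−0.62 ± 0.16). Other calls were less stable. *CTDSP2* (0.48 ± 0.16 at 100 µM) lost its call without any 1 of 7 libraries, those of control and 100 µM and 200 µM replicate 1, and also with the replicate block and after a GC correction. *PPM1A* (−0.45 ± 0.12 at 100 µM) lost it without control replicate 2 or 100 µM replicate 1, and after a GC correction, which turned its sign (log2 0.06). *TGIF2* (−0.59 ± 0.17 between the doses) lost it without 100 µM replicates 1 or 2 and with only the 2 groups fitted.

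Of the 20 other BMP target genes 18 were tested. At 100 µM 6 rose and 0 fell (33.3% and 0%, against 18.9% and 18.2% of all genes tested). At 200 µM 7 rose and 2 fell (38.9% and 11.1%, against 19.8% and 17.5%). Between the doses 6 rose and 2 fell (33.3% and 11.1%, against 22.4% and 21.9%). Their median log2 fold change was 0.44, 0.65 and −0.38 in the 3 comparisons. *DLX2*, a homeobox gene, rose at 100 µM from 3.37 to 10.1 CPM (1.59 ± 0.16, adjusted p = 1.0e-04) and was lower at 200 µM than at 100 µM. *ALPL* rose at 100 µM from 0.400 to 0.915 CPM, a call lost after a GC correction with the replicate block. *DLX5* rose there too (2.71 ± 0.77). It stayed higher but lost its call without control replicate 1 or 100 µM replicates 1 or 2 and after a GC correction with the replicate block, and without control replicate 2 its log2 fold change was 3.55. At 200 µM *DLX3* rose from 0.114 to 1.68 CPM (log2 3.83 ± 0.54, and 4.53 without control replicate 2). *UNC5B* rose from 1.96 to 6.27, and *GATA2*, an endothelial and blood transcription factor, from 11.8 to 32.6 (1.47 ± 0.11, adjusted p = 1.9e-05). The Notch and BMP targets *HEY2* and *HES1* fell at 200 µM (−1.49 ± 0.21 and −0.62 ± 0.14, adjusted p = 6.3e-04 and 0.0085). *MSX1* was 1.10 ± 0.12 higher and *SOX9* 1.43 ± 0.29 higher on the log2 scale at 200 µM than at 100 µM.

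For the TGF-β and SMAD3 branch, 21 of 24 target genes were tested, and 9 rose and 6 fell at 100 µM, and 9 rose and 4 fell at 200 µM. *CCN2*, a matricellular growth factor, rose from 12.5 ± 1.13 CPM to 44.4 ± 0.371 and 59.9 ± 2.70 (1.83 ± 0.09 and 2.26 ± 0.09, adjusted p = 3.5e-06 and 1.1e-06). *COL1A1* rose at 100 µM from 0.436 to 2.84 CPM and was 0.361 at 200 µM. *TAGLN* rose at 100 µM from 2.59 to 8.73 CPM, with 11.4% of its exon bases shared. The cytokine *IL11* fell at 100 µM from 38.4 to 5.73 CPM (−2.74 ± 0.18, adjusted p = 1.3e-05) and was 63.3 ± 14.4 at 200 µM. *PTHLH* and *JUNB*, with 10.4% and 14.2% of exon bases shared, also fell at 100 µM (−1.59 ± 0.28 and −0.88 ± 0.11) and were higher at 200 µM than at 100 µM. At 200 µM the matrix genes *FN1* (206 to 766 CPM) and *TGFBI* (31.0 to 91.6 CPM) rose, while *ADAM19*, *ADAM12* and *ANGPTL4* fell (−1.08 ± 0.13, −0.98 ± 0.17 and −0.79 ± 0.21). The fall of *ANGPTL4* was lost without control replicate 3 and with only the 2 groups fitted. *TNC* fell between the doses (−1.74 ± 0.08, adjusted p = 7.1e-07).

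Of the 3 E proteins that ID proteins bind, 1 rose at 100 µM and 1 fell at 200 µM. *TCF12* was at 323 ± 15.2, 320 ± 10.5 and 288 ± 53.3 CPM, and did not pass the test in any of the 3 comparisons, although it passed at 200 µM without 200 µM replicate 3, and between the doses without that library and after a GC correction. *TCF3* rose at 100 µM from 29.7 ± 4.27 to 47.7 ± 2.26 CPM (0.68 ± 0.11, adjusted p = 0.0016). It was 36.6 ± 1.99 at 200 µM, which did not pass against control (adjusted p = 0.062) but did without control replicate 3 or 200 µM replicate 3, and by DESeq2. Its fall between the doses (−0.38 ± 0.11) was lost without 100 µM replicates 1 or 2, with the replicate block and after a GC correction. *TCF4* was at 19.1 ± 0.876 and 20.9 ± 0.484 CPM in control and at 100 µM, which did not pass except after a GC correction (log2 0.38, adjusted p = 0.0038). It fell to 11.8 ± 2.47 at 200 µM (−0.69 ± 0.14, adjusted p = 0.0051). Of 9 atonal-related factors besides *ATOH8*, only *NEUROG2* passed the filter, at 2.08, 2.85 and 2.38 CPM, and it did not pass the test in any of the 3 comparisons.

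Without 200 µM replicate 3, the log2 fold changes at 200 µM against control were 2.68 for *ID2*, −2.66 for *ID3*, −1.59 for *ID1*, −2.75 for *ATOH8*, −0.23 for *BAMBI*, 0.62 for *SMAD7*, 0.37 for *SMAD6* and −0.35 for *ID4*. Each kept its direction.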

How the data were processed

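Poly(A)-selected RNA of A375 cells was sequenced in 9 libraries, 3 per group, at the depths given above. Whole-number counts per gene were deposited by the authors, and the submitters' processing notes name FastQC, HISAT2, featureCounts, DESeq2 and GRCh38, without versions. No source used here states whether counting used strand, so overlapping genes can share reads. A second deposited table of 100 features holds values taken to be FPKM, from their size against counts per length, since no label names the unit. Assembled transcripts without an annotated gene (2142 of 22605 features) were left out.

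The fit was edgeR 4.0.16 (R 4.3.3) with TMM scaling, filterByExpr, robust quasi-likelihood tests and 6 residual degrees of freedom on all 9 libraries. Benjamini-Hochberg adjustment ran over 13968 genes, with a threshold of 0.05. A run on simulated counts had no GC trend and no deviant library, so it does not vouch for the calls in these data. P-values measure the spread between these libraries. CPM are TMM-scaled, and log2 distances used a prior count of 0.5. Transcript length was the median over APPRIS principal transcripts in GENCODE release 29. Genes were grouped by the labels. The members and lists were chosen with earlier results of these data known. The text names all 8 members, from each list and comparison up to 3 called genes in each direction by size of fold change, a fixed set of core pathway genes, and 3 nearest profiles per member. Alternatives were DESeq2 1.42.0, other scaling and filters, single libraries left out, only the 2 groups compared, a replicate block, a GC correction, both together, and assembled transcripts kept.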

Additional observations from a re-analysis of the deposited data

How the results depend on the processing

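Of 432 recomputed member fold changes (24 values under 18 alternatives), 431 kept their sign and 415 moved by less than the spread between replicates. The exception in sign was *ID1* at 100 µM, at −0.04 and with total-count scaling 0.02. Most shifts came with the GC correction. The largest one, 1.34-fold, was that of *ID4* at 100 µM without 100 µM replicate 3 (log2 −2.09 against −1.66). The number of genes called at 100 µM was 5181, 8417 when only the 2 groups were fitted, and 3469 to 7943 with single libraries left out, the highest being without 200 µM replicate 3. DESeq2 gave 5855, 5861 and 6753 calls against 5181, 5211 and 6196. Same-numbered libraries did not deviate together (correlations from −0.13 to 0.02), so the numbers were not taken to pair libraries. With the replicate number as a block, 4264, 4369 and 5404 genes were called, 45, 51 and 54 of them in the pathway lists. The fit with assembled transcripts kept, chosen after seeing the data, gave 5191, 5246 and 6337 calls. Depth limits *ID4*, *SMAD6* and *ATOH8* most, with 21 to 132, 64 to 232 and, at 200 µM, 24 to 31 counts per library.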
